A study of Mus musculus with 6 samples.

Results

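Heme is built in the liver by a short chain of mitochondrial and cytosolic enzymes and is broken down by heme oxygenase and biliverdin reductase. RNA of 9 enzymes of these pathways was examined, chosen by gene name: Alas1, Alad, Uros, Urod, Cpox, Ppox and Fech for synthesis, and Blvra and Blvrb for the reduction of the bile pigments. All 9 were found among the 20673 genes of the deposited tables, and all 9 passed the filter on low counts, with 133 to 13615 reads per gene and liver. The heme oxygenase genes Hmox1 and Hmox2 were not on the list, and their values are given once, having been chosen after they were seen.

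The livers came from C57BL/6J mice, young adults bought from a commercial breeder, fed a regular diet (RD, 3 mice) or a high-cholesterol diet (HCD, 3 mice) for 3 days and otherwise untreated. HCD contained cholesterol, cocoa butter and sodium cholate, a bile salt, so that the effects of cholesterol, fat and cholate cannot be told apart in these livers. RNA from each liver was sequenced as 1 library. Whole liver holds hepatocytes together with Kupffer cells, endothelium and blood, and in such bulk samples a change in the number of cells and a change in RNA per cell cannot be told apart.

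Synthesis starts in the mitochondrion, where the ALAS1 enzyme joins glycine and succinyl-CoA, a step that limits the rate of the pathway in liver. The middle steps run in the cytosol, and the last ones return to the mitochondrion, where ferrochelatase puts iron into the ring. Hepatocytes use much of this heme for cytochrome P450 enzymes, and ALAS1 is known to be repressed by heme itself. In breakdown, heme oxygenase opens the ring to biliverdin and biliverdin reductase turns that into bilirubin.

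Counts per library totalled 13771630 to 23129576 with RD and 13935491 to 18545549 with HCD. The test covered 13105 genes. The study used mice of both sexes, and the labels do not give the sex of each liver. HCD replicate 1 stood apart in sex-linked RNA, with 5032 Xist reads and 0 from 4 Y-linked genes, where the other 5 livers had 0 Xist reads and 1075 to 2666 Y-linked reads. Read as sex markers, these RNAs make HCD replicate 1 female and the other 5 livers male, so sex was not balanced between the diets. The results for Alas1 and Blvrb are therefore given with and without HCD replicate 1. Library names differed between the diets, and the sources used here do not say whether the libraries were prepared together, so that preparation and diet cannot be told apart. Hepatocyte markers were abundant in every liver, with a summed level of 60300 to 82510 FPKM with RD and 65710 to 94880 with HCD over 7 genes, most of it albumin. FPKM are fragments scaled to gene length and library size, and are used here to compare genes with each other. CPM are reads scaled to library size with TMM factors, and are used to compare livers.

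Blvrb, 1 of the 2 biliverdin reductases, rose 1.99-fold with HCD. Alas1 averaged 2.72-fold lower, and each HCD liver was below each RD liver, but the spread within the diets was wide and the difference did not pass the test. The last enzyme of synthesis, Fech, had nearly equal means with both diets. In edgeR's two-sided quasi-likelihood test, with Benjamini-Hochberg adjusted p-values under 0.05 over the whole table, 1 of the 9 was called higher and 0 lower. Of all genes tested, 3.27% (428) were called in either direction, 1.95% higher and 1.32% lower. With 1 liver left out, 36 to 335 genes of the whole table were called. At a nominal p up to 0.05 there were 2 higher, Blvrb and Alad, and 2 lower, Alas1 and Uros, where 20.9% of all genes were at that level. DESeq2 called 1 higher and 0 lower as well, and called 7.2% of all genes it tested, 4.01% higher and 3.19% lower. Their median log2 fold change was -0.055, beside 0.0074 over all genes tested. For 6 of the 9 the ranges of the 2 diets were apart, 4 with HCD above RD and 2 with HCD below, beside 27.6% of all genes, 14% above and 13.7% below. For each of these 6 an exact two-sided permutation test over the livers gave p = 0.1, the smallest that 3 livers against 3 allow.

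**Figure D1:**
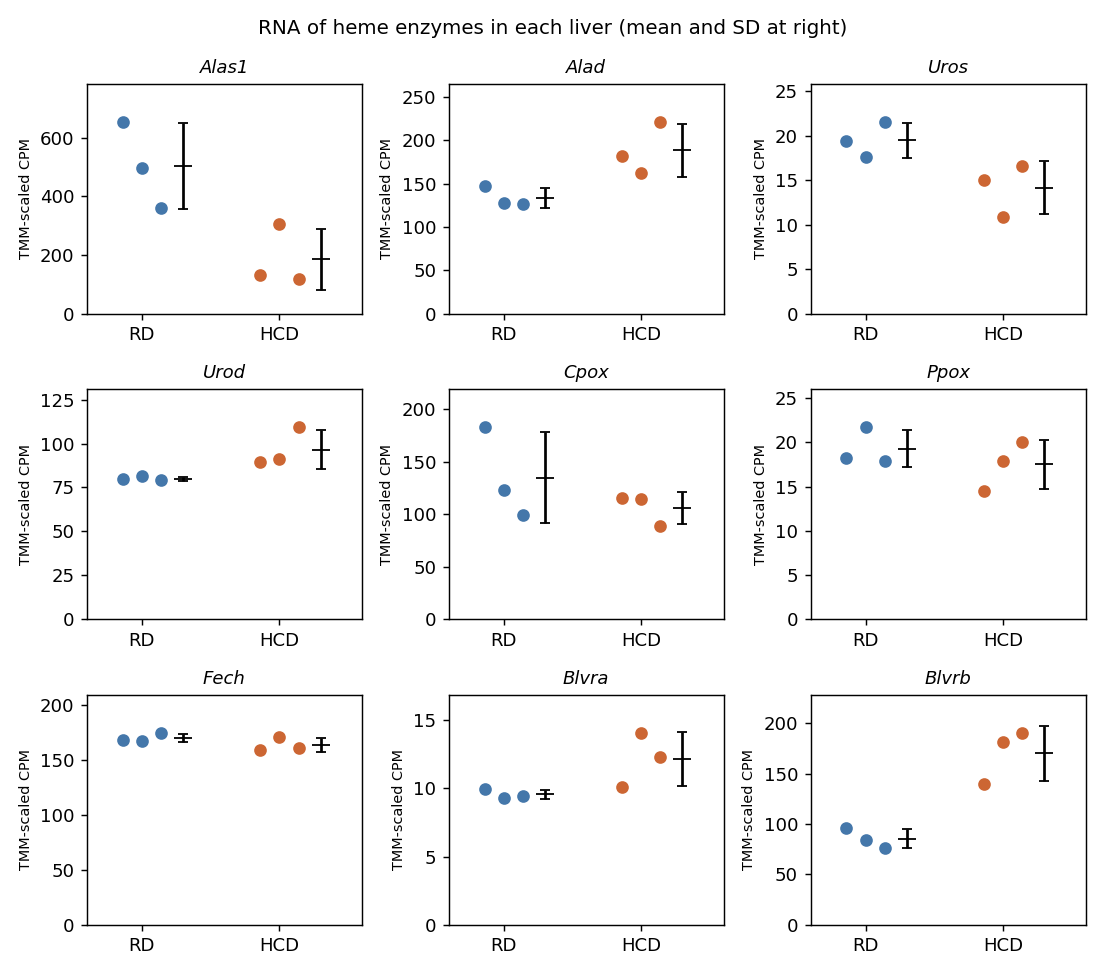
TMM-scaled CPM of each of the 9 genes in each liver, with RD livers in blue and HCD livers in orange, and the mean with its SD (n = 3) as a black bar beside each diet. The diets are apart for Alas1 and Uros, lower with HCD, and for Alad, Urod, Blvra and Blvrb, higher with HCD, while Cpox, Ppox and Fech overlap.

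Per gene length, Alas1 was on average the most abundant of the 9 with RD, at 119 ± 33.7 FPKM (SD, n = 3). Alad followed at 104 ± 8.79 FPKM and Fech at 85.6 ± 3.80, and the spread of Alas1 covered both. The Fech levels rest on the 2901 bases that its deposited counts and FPKM imply, whereas all Fech exons of M21 span 13838 bases, at which Fech would be at 17.9 ± 0.796 FPKM with RD and 17.5 ± 0.294 with HCD, below Cpox. For the other 8 genes the implied and the M21 lengths were equal. Urod and Blvrb were level with each other at 45.1 ± 0.516 and 44.8 ± 4.61 FPKM, and Cpox was at 29.5 ± 9.21. Uros, Ppox and Blvra made up the low end at 7.98 ± 0.979, 6.23 ± 0.573 and 5.70 ± 0.242 FPKM. With HCD the order was different. Alad led at 150 ± 26.2 FPKM, followed by Blvrb at 90.7 ± 13.9 and Fech at 83.6 ± 1.40, which overlapped in their spread. Urod at 55.4 ± 6.78 FPKM and Alas1 at 44.2 ± 23.7 came next and also overlapped, ahead of Cpox at 23.6 ± 3.31. Blvra, Uros and Ppox remained lowest, at 7.37 ± 1.05, 5.89 ± 1.33 and 5.76 ± 0.907 FPKM.

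Alas1 (ENSMUSG00000032786) lies on the minus strand of chromosome 9, from 106233455 to 106248654 in the GENCODE M21 annotation of GRCm38. RD livers had 654, 498 and 359 CPM of Alas1 in replicates 1, 2 and 3. HCD livers had 132, 305 and 119 CPM. The lowest RD liver was thus above the highest HCD liver, RD replicate 3 and HCD replicate 2 being the nearest. The log2 fold change of Alas1, HCD over RD, was -1.44 (standard error 0.38, 95% interval -2.31 to -0.58), with an adjusted p of 0.0803 (edgeR). Counting noise was small beside this spread, since even the lowest value rested on 1466 reads. Alas1 varied more between livers of 1 diet than most of the other enzymes, with a coefficient of variation of 29.3% with RD and 56.0% with HCD. Among the others only Cpox with RD, at 31.9%, was as variable.

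How the Alas1 difference was called depended on single livers. Without HCD replicate 2, the HCD liver with the most Alas1, its log2 fold change was -2.01 and passed the test (adjusted p = 0.0252, edgeR). Without HCD replicate 1, the liver with Xist RNA, it was -1.25 (adjusted p = 0.141). Every fit that left out 1 liver kept Alas1 lower with HCD, with log2 fold changes from -2.01 to -1.21.

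The start region of Alas1 is shown because it holds a match to the core motif of NRF1, a transcription factor of nuclear genes for mitochondria known to act on Alas1. RefSeq gives 2 starts for the gene, and the core CGCATGCG, which reads the same on both strands, is in the 250 bases before the downstream one, starting at position -194 from it. The motifs searched here were chosen with the fold changes known, and a match is a description of the letters, not a site of binding. Capitals mark the motif in the 30 bases around it at chr9:106247906-106247935 of GRCm38.p6, minus strand.
Alas1: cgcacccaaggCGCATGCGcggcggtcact
Of 32851 RefSeq windows of the same length, 1.55% held this core. Nrf1 RNA itself differed little in its means, at 9.88 ± 0.563 CPM (SD, n = 3) for RD and 10.7 ± 1.35 for HCD (log2 fold change 0.12, adjusted p = 0.750, edgeR).

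The second enzyme, encoded by Alad, condenses the product of ALAS1 to porphobilinogen. Alad was at 147, 127 and 127 CPM in RD replicates 1, 2 and 3 and at 182, 162 and 221 CPM in the HCD livers. Its diets did not overlap, in the direction opposite to Alas1, but the log2 fold change, 0.50 with a standard error of 0.16, did not pass the test (adjusted p = 0.126, edgeR). Genes as short as Alad, whose exons span 1871 bases, tended to be higher with HCD, and genes of like length had a median log2 fold change of 0.23. With each library's length trend taken out, by the lengths that counts and FPKM imply, the log2 fold change of Alad was 0.38 (adjusted p = 0.257, edgeR).

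Uros and Urod act later in the pathway, the former closing the ring and the latter trimming its side chains. Uros livers were at 19.4, 17.6 and 21.5 CPM with RD and at 15.0, 10.9 and 16.6 with HCD. All HCD livers were below the RD livers, and the log2 fold change was -0.46 with a standard error of 0.19 (adjusted p = 0.215, edgeR). Urod was the steadiest of the 9 with RD, at 79.6, 81.3 and 79.2 CPM, and was at 89.4, 91.3 and 109 CPM with HCD. Its diets were apart as well, but by less than for Alad, and the log2 fold change was 0.27 (95% interval -0.018 to 0.56, adjusted p = 0.266).

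Alad, Uros and Urod share a feature of their start regions that the choice of genes did not use, the E-box CACGTG, which binds bHLH factors such as those of the clock. The E-box was 1 of the motifs searched, which were chosen with the fold changes known. It stood in the 250 bases before a RefSeq start of 3 of the 8 genes with such a window, or 4 of their 12 windows, and in 6.02% of all windows of this length. Counted by gene, 6.86% of all 27025 genes had it before at least 1 start. Capitals mark it in 30 bases of each, all on the minus strand of GRCm38.p6, at chr4:62520151-62520180 for Alad, chr7:133709516-133709545 for Uros and chr4:116994445-116994474 for Urod.
Alad: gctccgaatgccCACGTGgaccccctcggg
Uros: CACGTGtgctttctcacctcgtccacgatt
Urod: cactggatcggtCACGTGgttctcaatatg
The second RefSeq start of Alad has another E-box at position -28 from it. Uros has the E-box before 1 of its 2 starts, at position -250, the edge of the window. The CCAAT box, another motif searched, stood before a start of Alad, Urod, Ppox and Blvra, and before 37.5% of all genes. RNA of the 3 genes with an E-box did not share a direction between the diets, Alad and Urod having averaged higher with HCD and Uros lower.

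Cpox and Ppox encode the mitochondrial oxidases that make protoporphyrin. Cpox ranged from 98.9 to 183 CPM with RD, and RD replicate 1, the liver with the most Alas1, also had the most Cpox. With HCD Cpox was at 116, 114 and 88.3 CPM, inside or below the RD range, and its log2 fold change was -0.35 (95% interval -0.87 to 0.18, adjusted p = 0.425). Without RD replicate 1 it was -0.068. Ppox was at 17.9 to 21.7 CPM with RD and 14.6 to 20.1 with HCD, a log2 fold change of -0.14 (adjusted p = 0.691). Exons of Ppox overlap those of B4galt3 on the opposite strand by up to 791 bases, and as the strand of the counting is not stated, reads there may belong to either gene. Alas1 and Cpox have shorter overlaps of this kind, of 351 and 204 bases.

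Fech, which encodes ferrochelatase, had the smallest difference of the 9 in the reported fit. Its values were 168, 167 and 174 CPM with RD and 159, 171 and 161 CPM with HCD. Their coefficient of variation was 2.33% and 3.97%, and the log2 fold change was -0.055 (standard error 0.12, 95% interval -0.33 to 0.22, adjusted p = 0.831). The interval includes 0 and differences of either sign. After removal of the length trend by the implied lengths, 2901 bases for Fech, the value was -0.084 (adjusted p = 0.762, edgeR). With the M21 length of Fech, 13838 bases, it was 0.11 (adjusted p = 0.690, edgeR), so that its sign depended on the length used.

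**Figure D2:**
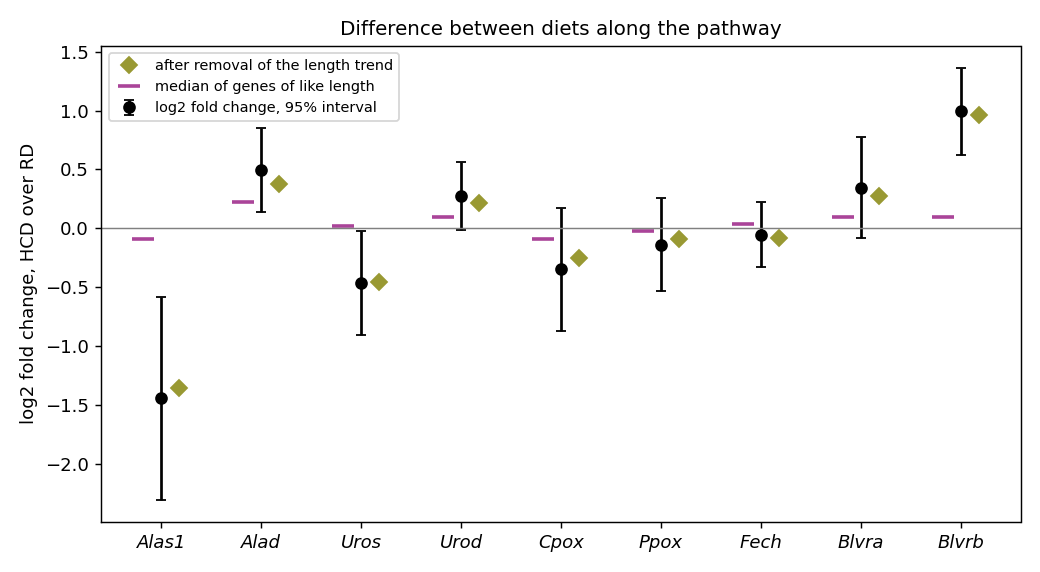
Log2 fold change of HCD over RD for the 9 genes in pathway order (black points with 95% intervals, edgeR, n = 3 livers per diet), the median of genes of like length (purple bars) and the value after removal of the length trend (olive diamonds), with lengths as the deposited counts and FPKM imply them. Alas1 at -1.44 and Blvrb at 0.99 lie farthest from 0, and removal of the trend leaves every gene on its side of 0.

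Blvrb (ENSMUSG00000040466, chromosome 7, plus strand, from 27447978 to 27466144 in GRCm38) was the gene that rose. It encodes biliverdin reductase B, also known as flavin reductase, which acts on the beta isomer of biliverdin and on flavins with NADPH and is abundant in red cells and liver. RD livers had 95.6, 84.1 and 76.6 CPM of Blvrb, and HCD livers had 139, 181 and 190 CPM. The lowest HCD liver, replicate 1, was well above the highest RD liver. The log2 fold change of Blvrb was 0.99 (standard error 0.16, 95% interval 0.62 to 1.36), with an adjusted p of 0.0225 (edgeR). Without HCD replicate 1, the liver with Xist RNA, it was 1.12 (adjusted p = 0.0136). Blvrb was no longer called without RD replicate 1, 2 or 3 (adjusted p = 0.0950, 0.122 and 0.0770 in edgeR) or without HCD replicate 3 (adjusted p = 0.0752), with log2 fold changes of 0.90 to 1.12 in all fits that left out 1 liver. In that order, these fits called 36, 51, 146 and 103 genes over the whole table, beside 428 with all livers. After removal of the length trend by the implied lengths the log2 fold change of Blvrb was 0.96 and it was called (adjusted p = 0.0361, edgeR).

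The 250 bases before the upstream RefSeq start of Blvrb are shown as the start region of the gene that was called. They lie at chr7:27447728-27447977 of GRCm38.p6 on the plus strand, are 62.0% G and C, and hold 1 SP1 box, GGGGCGGGG on the minus strand, in capitals.
Blvrb: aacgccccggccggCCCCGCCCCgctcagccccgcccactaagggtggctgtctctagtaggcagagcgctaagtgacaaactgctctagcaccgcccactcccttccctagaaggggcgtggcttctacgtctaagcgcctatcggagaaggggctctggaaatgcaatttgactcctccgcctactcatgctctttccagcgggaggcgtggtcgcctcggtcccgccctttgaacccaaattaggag
The SP1 box was in 10.4% of all RefSeq windows of this length and also before both starts of Alad. No match was found here to TGACNNNGC, the core of the antioxidant response element, on either strand, which 10.2% of the windows held and Blvra had once.

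Blvra encodes biliverdin reductase A, which makes the bilirubin of the adult body from the alpha isomer. It was far less abundant than Blvrb, at 9.95, 9.28 and 9.42 CPM with RD and 10.1, 14.1 and 12.3 CPM with HCD. The diets were narrowly apart, HCD replicate 1 being close to RD replicate 1, and the log2 fold change was 0.35 (standard error 0.19, 95% interval -0.084 to 0.78, adjusted p = 0.337). Within each liver the ratio of Blvrb to Blvra, in FPKM, was 7.86 ± 0.660 (SD, n = 3) with RD and 12.3 ± 1.15 with HCD, with no overlap (exact two-sided permutation test, p = 0.1).

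Heme oxygenase opens the heme ring to biliverdin, the step before its reduction. Hmox2, the constitutive form, was at 24.8 to 27.4 CPM with RD and 33.8 to 40.9 CPM with HCD, a log2 fold change of 0.46 (adjusted p = 0.108, edgeR). Hmox1, the inducible form, overlapped between the diets, at 12.8 to 23.5 and 16.1 to 24.5 CPM (log2 fold change 0.38, adjusted p = 0.463).

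Neither Alas1 nor Alad passed the test, and their ratios and the make-up of synthesis RNA are given as a description of the livers. Alas1 held 34.2%, 30.3% and 24.1% of the summed FPKM of the 7 synthesis genes in RD replicates 1, 2 and 3. It held 9.21%, 19.4% and 7.48% in HCD replicates 1, 2 and 3, all below the RD livers (exact two-sided permutation test, p = 0.1). The sum itself overlapped between the diets, at 361 to 451 FPKM with RD and 351 to 386 with HCD (exact permutation p = 0.5). Without Alas1 the other 6 summed to 279 ± 16.3 FPKM (SD, n = 3) with RD and 324 ± 30.8 with HCD, and overlapped as well (exact permutation p = 0.2). The ratio of Alas1 to Alad was between 0.859 and 1.35 with RD and between 0.163 and 0.571 with HCD. The ratio of Alas1 to Fech, the first step to the last, was 0.969 to 1.83 and 0.347 to 0.839. At the M21 length of Fech that ratio would be 6.67 ± 2.05 (SD, n = 3) with RD and 2.51 ± 1.30 with HCD, and the Alas1 share of the sum 35.6% ± 5.13 and 14.7% ± 7.96, with the diets still apart in both. A ratio within 1 liver does not depend on library scaling, and these ratios were chosen after the values were seen. Ratios between genes of unlike length still hold the length trend, for which they were not corrected. Genes of like length had a median log2 fold change of -0.087 for Alas1 and 0.23 for Alad. The ratio of Blvrb to Alas1 differed by more than the other ratios computed, with 0.324 to 0.473 FPKM of Blvrb per FPKM of Alas1 with RD and 1.32 to 3.55 with HCD.

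**Figure D3:**
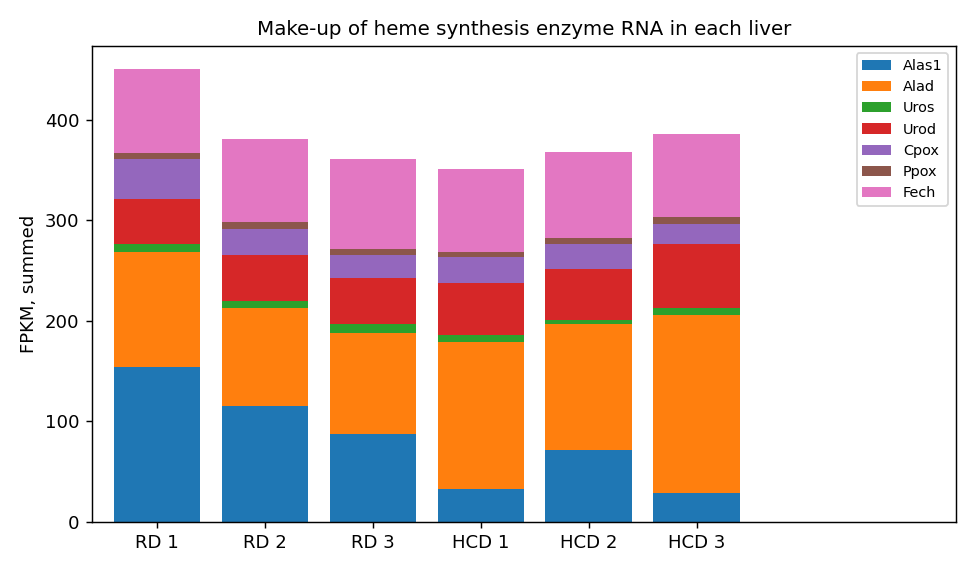
Summed FPKM of the 7 heme synthesis genes in each of the 6 livers, stacked by gene from Alas1 at the base to Fech at the top. The Alas1 part is 24.1% to 34.2% of the stack with RD and 7.48% to 19.4% with HCD, while the Fech part is of like height in every liver.

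Genes around these enzymes were read from lists of supply and transport, of regulators of Alas1, of bilirubin handling and of heme-containing enzymes. Of 23 genes that supply substrates and iron to the pathway or carry heme and porphyrins, edgeR called 0 and DESeq2 1. These tools called 3.27% and 7.2% of all genes they tested. The 23 had 4 higher and 1 lower at a nominal p up to 0.05, beside 20.9% of all genes tested. The nearest, and the 1 that DESeq2 called, was Tmem14c, which moves a porphyrin precursor into the mitochondrion, with 98.1 ± 11.6 CPM (SD, n = 3) in RD and 144 ± 7.15 in HCD livers (log2 fold change 0.55, adjusted p = 0.0658). For Clpx, a mitochondrial unfoldase that acts on the ALAS1 protein, the log2 fold change was 0.44 (adjusted p = 0.110). Both genes are named after their values were seen. The median log2 fold change of the list was 0.19.

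Among 13 regulators of Alas1 transcription edgeR called 0 and DESeq2 1 higher and 1 lower. Over all genes tested, edgeR called 3.27%, and DESeq2 called 4.01% higher and 3.19% lower. The 13 had 3 higher and 2 lower at a nominal p up to 0.05 in edgeR, beside 20.9% of all genes tested. Ppargc1a, the coactivator that raises Alas1 in fasting, overlapped between the diets at 3.56 to 8.77 CPM with RD and 3.52 to 8.74 with HCD (log2 fold change 0.27, adjusted p = 0.768). Nr1i3 and Nr1i2, the xenobiotic receptors CAR and PXR that act on Alas1, had log2 fold changes of 0.69 (adjusted p = 0.416) and 0.50 (adjusted p = 0.133). Nr1d1, which encodes the clock repressor REV-ERB alpha, was at 33.7 to 61.6 CPM with RD and 8.13 to 32.8 with HCD (log2 fold change -1.54, adjusted p = 0.132). Of 11 clock genes tested, edgeR called 0 and DESeq2 called 3 higher and 2 lower, beside 3.27% and 7.2% of all genes called by these tools. At a nominal p up to 0.05 there were 3 higher and 5 lower, beside 20.9% of all genes tested. The sources used here do not give the time of day of collection, and the part of the clock in the Alas1 values was not tested.

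Of 8 genes of bilirubin handling, edgeR called 1 higher, Gsta2, and DESeq2 called 2 higher, beside 1.95% and 4.01% of all genes. At a nominal p up to 0.05 there were 3 higher and 0 lower, beside 20.9% of all genes. Gsta2 encodes an alpha glutathione transferase of the class that binds bilirubin, and its log2 fold change was 2.05 (standard error 0.35, adjusted p = 0.0252, edgeR). Gsta2 was not called without RD replicate 1, RD replicate 2 or HCD replicate 3 (adjusted p = 0.112, 0.122 and 0.0664 in edgeR). These fits called 36, 51 and 103 genes over the whole table, beside 428 with all livers. Ugt1a1, the enzyme that conjugates bilirubin, was at 63.3 to 87.6 CPM with RD and 82.0 to 148 with HCD (log2 fold change 0.51, adjusted p = 0.250). For Abcc2, the pump that carries the conjugate into bile, it was 0.19 (adjusted p = 0.585). Ugt1a1 and Abcc2 are named for their roles, with their values known.

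Among 24 heme-containing enzymes, 5 rose and 3 fell in edgeR's test, beside 1.95% and 1.32% of all genes, and DESeq2 called 6 higher and 5 lower, beside 4.01% and 3.19% of all genes. DESeq2 gave no adjusted p for 1 gene of the list, Cyp4a14, the other gene called higher by edgeR, which had 2054 CPM in HCD replicate 1, 201 and 202 in the other HCD livers and 5.82 to 40.6 with RD. Its log2 fold change was 5.26 with all livers (adjusted p = 0.0474, edgeR) and 3.24 without HCD replicate 1 (adjusted p = 0.0427, edgeR), and it was not called without RD replicate 1, 2 or 3 or HCD replicate 3 (adjusted p = 0.0766 to 0.201, edgeR). Cyp2a5, Cyp3a25, Cyp3a11 and Cyp4a10 rose with log2 fold changes of 1.57, 0.98, 1.06 and 2.96 (adjusted p = 0.0124, 0.0203, 0.0329 and 0.0343 in edgeR). Cyp51, a sterol enzyme, and Cyp8b1 and Cyp7a1 of bile acid synthesis fell, with log2 fold changes of -2.84, -4.01 and -1.75 (adjusted p = 0.000736, 0.00226 and 0.0453 in edgeR). Genes such as Cyp2a5, Cyp3a11, Cyp4a10 and Gsta2 have close relatives, between which counting can split reads. Cyp4a10 stood highest in HCD replicate 1, the liver with Xist RNA, at 853 CPM against 174 and 231 in the other HCD livers, and its log2 fold change without that liver was 1.91 (adjusted p = 0.00828, edgeR). Cyp51 and Cyp8b1 were called in each fit that left out 1 liver. Cyp2a5, Cyp3a25, Cyp3a11 and Cyp4a10 were not called without RD replicate 1 (adjusted p = 0.0696 to 0.153, edgeR) or RD replicate 2 (0.0727 to 0.143), and without HCD replicate 3 the same held for Cyp3a25, Cyp3a11 and Cyp4a10 (0.0543 to 0.0800). Without RD replicate 3 Cyp4a10 was not called (0.0908), and without HCD replicate 2 Cyp3a11 was not (0.0600). Cyp7a1 was not called without RD replicate 1, 2 or 3 or HCD replicate 2 (adjusted p = 0.0920 to 0.151, edgeR). Over the whole table, 36, 51 and 146 genes were called without RD replicate 1, 2 and 3, beside 428 with all livers. Without HCD replicates 2 and 3 the numbers were 333 and 103. The list was drawn up with results for several of these genes known, so its share of calls is not independent evidence. The median log2 fold change over the list was 0.17, beside 0.0074 over all genes tested.

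Red cells also contain BLVRB, and globin RNA differed between the diets. Of the 11 red cell genes in the tables, 6 passed the filter, DESeq2 called 3 higher and edgeR 2, Hba-a1 (15.3 to 36.7 CPM with RD, 77.1 to 176 with HCD) and Hbb-bs (14.9 to 38.6 and 80.6 to 167 CPM). Globin genes have near-identical copies, and their counts are uncertain one by one. Of all genes, 1.95% were called higher by edgeR and 4.01% by DESeq2. The list summed to 128 to 265 FPKM with RD and 335 to 751 with HCD. Alas2, the red cell form of the first enzyme, did not move with the globins, at 105 to 154 CPM with RD and 8.24 to 119 with HCD, lowest in HCD replicate 1. The membrane genes Slc4a1 and Epb42 had at most 5 reads in any liver. All 12 Kupffer cell and macrophage genes were above 0 in log2 fold change, with a median of 0.84, 6 at a nominal p up to 0.05, 1 called by edgeR (Cd68) and 5 called higher by DESeq2, beside 20.9%, 1.95% and 4.01% of all genes, and summed levels of 141 to 234 FPKM with RD and 209 to 431 with HCD. Both globin genes were not called without RD replicate 1, RD replicate 2 or HCD replicate 3 (adjusted p = 0.0743 to 0.112, edgeR), and among such fits Cd68 was called only without HCD replicate 2. Leaving out RD replicate 1, RD replicate 2 or HCD replicate 3 gave 36, 51 and 103 called genes over the whole table, beside 428. The part of red cells and Kupffer cells in the rise of Blvrb was not tested.

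The genes most like Alas1 over the 6 livers, among 9116 others with a mean of at least 5 CPM, were Smcr8, Sec24d, Plcxd2, Nectin2 and Mlf2. Their Pearson's r with Alas1 in log2 CPM was 0.991 to 0.996. For Blvrb they were Sdf4, Gadd45gip1, Mettl26, Zcrb1 and mt-Th (r of 0.991 to 0.996). The correlations describe 6 livers that share the diet difference, and with this many genes compared some are high by number alone.

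**Figure D4:**
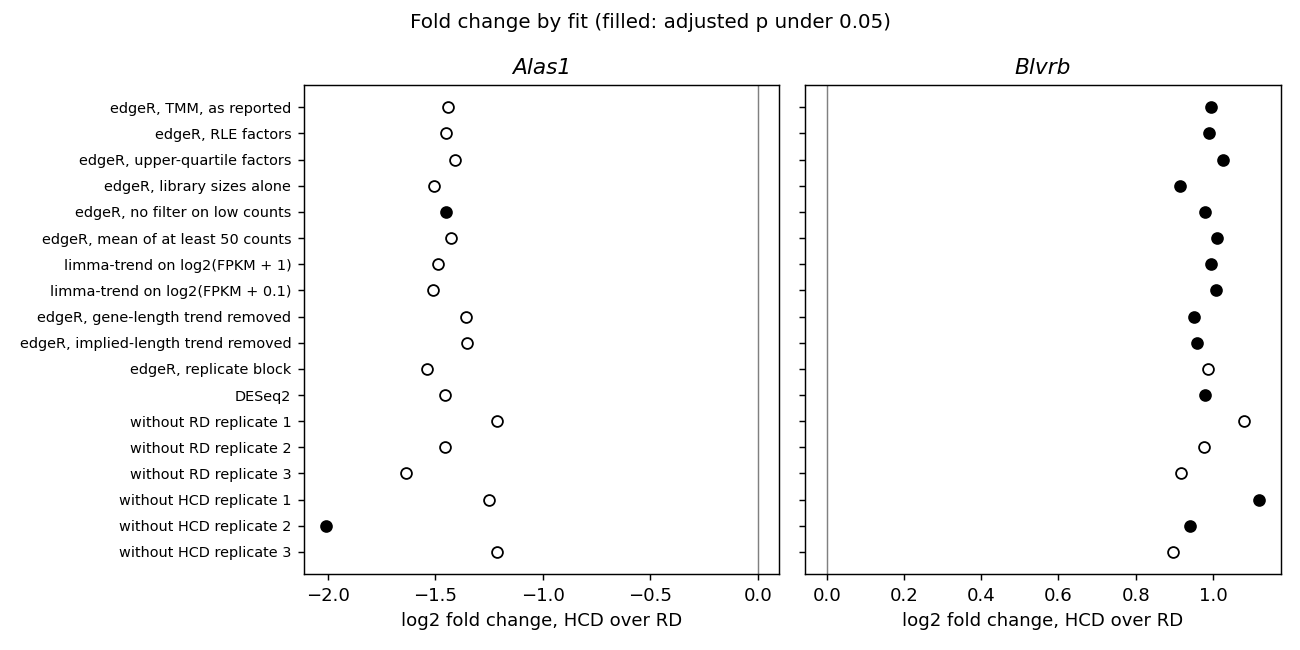
Log2 fold change of HCD over RD for Alas1 (left) and Blvrb (right) in the reported fit and its 17 alternatives, 1 row each, with filled points where the adjusted p was under 0.05. Alas1 stays between -2.01 and -1.21 and is filled in 2 alternatives, and Blvrb stays between 0.90 and 1.12 and is filled in 12.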

How the data were processed

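Liver RNA of 3 RD and 3 HCD mice was sequenced by Novogene, 1 library per mouse. Diet and replicate came from the sample labels. The authors deposited raw read counts per gene and FPKM. Per the labels, the submitters' processing notes name STAR, HTSeq, DESeq2, edgeR and GRCm39, without roles or versions. The log2 fold changes and p-values that the authors deposited from their own comparison were not used. Exon lengths came from GENCODE M21 (GRCm38). They equalled the lengths implied by counts and FPKM, within 0.1%, for 94.9% to 95.0% of genes with at least 50 counts. The same held for 8 of the 9 members, Fech being the exception. GRCm39 coordinates were not used here.

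Counts were tested in R 4.3.3 with edgeR 4.0.16 (filterByExpr by diet, TMM, glmQLFit and glmQLFTest of diet without covariates, Benjamini-Hochberg over 13105 genes), a procedure tested on simulated data. Single values used log2 of CPM plus 0.5 and the exact permutation test over 20 assignments of livers. A count of 0 allows up to 0.130 to 0.218 CPM (3 counts), which covers counting error only. Livers of 1 diet differed far beyond counting noise (chi-square per degree of freedom 27.7 to 143). The labels do not state separate litters or batches, and p-values measure the spread between these livers. Some genes of these lists are not reported here. Members and lists were chosen with earlier results of these data known. By rule, all members were named, list genes called by edgeR (up to 4 per direction and list), the regulators Ppargc1a, Nr1i3, Nr1i2 and Nr1d1, and the 5 genes nearest to Alas1 and Blvrb. Genes named outside that rule include Cyp4a14, Nrf1, Hmox1, Hmox2, Tmem14c, Clpx, Ugt1a1, Abcc2, Alas2 and Ttr. Copies of members were sought with minimap2 2.31 (at least 200 bases, 90% identity) and promoters taken from RefSeq (GRCm38.p6), which matched 8 of the 9 genes. Alternatives were DESeq2 1.42.0, scaling by RLE, by upper quartile or by library size only, omission of the filter, a filter at 50 mean counts, limma (3.58.1, trend) on log2 of FPKM plus 1 or 0.1, offsets removing a loess trend with M21 length (span 0.5) or, added after the data were seen, with the length implied by counts and FPKM, a replicate block, each liver left out, and other call rules. Figures used Python 3.11.15 and matplotlib 3.10.9.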

Additional observations from a re-analysis of the deposited data

How the results depend on the processing

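The count of enzymes called higher was 1 in the reported fit and went to 0 with a replicate block, to 0 with a required absolute log2 fold change of at least 1 and to 2 at a nominal p up to 0.05. Over the whole table, 428 genes were called in the reported fit, 136 with the block, 249 with the fold change rule and 2739 at the nominal p. The count of enzymes called lower, 0, went to 1 (Alas1, adjusted p = 0.0186, edgeR) without a filter on low counts and to 2 at a nominal p up to 0.05. Omitting the filter gave 649 called genes over the whole table. Leaving out 1 liver gave 0 to 1 enzymes called higher and 0 to 1 called lower, with 36 to 335 genes called over the whole table. The median log2 fold change of the 9 went from -0.055 to 0.11 after removal of the length trend by M21 lengths, because Fech, the median gene, went from -0.055 to 0.11 at 13838 bases. With the lengths implied by counts and FPKM, 2901 bases for Fech, a fit added after the data were seen, the median and Fech were both at -0.084. The median lay between -0.094 and -0.019 with 1 liver left out. Of the genes of the 4 pathway lists (supply, regulators, bilirubin handling and heme-containing enzymes), 6 called higher and 3 lower became 10 and 6 with DESeq2, 18 and 8 at a nominal p up to 0.05 and 2 higher with the replicate block, and 0 to 6 higher and 2 to 5 lower with 1 liver left out (without HCD replicate 1, 5 lower). These 4 lists lost all calls higher without RD replicate 1 or RD replicate 2, fits that called 36 and 51 genes over the whole table. Apart from Fech, no enzyme changed sign in any of the 17 alternatives. Same-numbered livers of the 2 diets did not deviate together (correlations -0.084, 0.12 and -0.030), so the numbers are not taken to pair the livers. With the replicate block the log2 fold change of Blvrb was 0.99 (adjusted p = 0.0658, edgeR). The cause of these shifts was not tested.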

Other observations

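Markers of liver zones were read as a description of the tissue. Of 8 pericentral genes 0 were called by edgeR and 0 were at a nominal p up to 0.05, with a median log2 fold change of -0.17 and summed levels of 4306 to 7086 FPKM with RD and 5222 to 6128 with HCD, most of it from Cyp2e1. Of 8 periportal genes 0 were called and 0 were at a nominal p up to 0.05 as well, with a median of -0.015. Of 7 hepatocyte genes 0 were called by edgeR, 1 was higher at a nominal p up to 0.05 (Ttr) and the median was -0.25. DESeq2 called 0 of the pericentral, 0 of the periportal and 1 of the hepatocyte genes (Ttr, named after its value was seen).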
